A study of Caenorhabditis elegans with 8 samples.

Results

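The DNA damage checkpoint and germline apoptosis genes described here were 10 genes chosen by name: the checkpoint genes atm-1, atl-1, hus-1 and mrt-2, the p53-family gene cep-1, its transcriptional targets egl-1 and ced-13, and the death genes ced-9, ced-4 and ced-3. They were 10 of 46244 gene identifiers in the deposited tables, and all 10 were matched. Of these, 9 passed the filter on low counts that left 15496 genes for testing, and ced-13 did not. Whole Caenorhabditis elegans worms of a strain that the labels name col-121, the name of a cuticle collagen gene, with no allele given, were picked late in the L4 larval stage and exposed for 24 hours. The 4 DEET samples received the insect repellent DEET dissolved in DMSO at 0.1 M, and the 4 DMSO samples received the solvent alone at 0.1%. Whether 0.1 M describes the stock or the plates is not stated, nor is the percentage of DMSO that the DEET samples received. Both groups share the strain, the solvent and the number of worms, 1000 per sample, and each DEET sample has a DMSO partner with the same pair number (1 to 4), which the labels also call a batch. The series title links DEET to germline dysfunction, and the question here is whether transcripts of the pathway that kills damaged germ cells differed.

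In the worm germline, the kinases ATM-1 and ATL-1, relatives of mammalian ATM and ATR, sense broken DNA and stalled replication, and a ring-shaped clamp containing HUS-1 and MRT-2 helps to relay the signal. The signal activates CEP-1, which switches on egl-1 and ced-13. Their products are small BH3-only proteins that bind the Bcl-2 relative CED-9, release the Apaf-1 relative CED-4 and so allow the caspase CED-3 to be activated. A rise of egl-1 and ced-13 mRNA is therefore widely used as a readout of CEP-1 activity. Many germ cells also die without damage during oogenesis, through CED-4 and CED-3 but without CEP-1 or EGL-1. Most of these proteins are controlled after transcription as well, and mRNA levels do not measure their activity.

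The libraries held 44437681 to 50295321 counts. With the treatment as the only term, edgeR called 0 of 15496 genes at an adjusted p under 0.05, with 45 at an unadjusted p under 0.05. With the pair number as a block it called 13, and DESeq2 called 10 without the block and 20 with it. Ribosomal RNA took 5.99% to 12.07% of counts in the DEET libraries and 3.91% to 10.9% in the DMSO libraries, and pair 4 had the largest share in both groups. Embryonic markers were near the limit of detection, with 1 of 8 past the filter, and sperm markers were low, at summed levels of 21.98 to 74.1 TPM in DEET and 29.0 to 73.0 TPM in DMSO. Germ cell markers (731 to 955 TPM in DEET, 648 to 964 TPM in DMSO) and oocyte markers (1918 to 3151 TPM in DEET, 1606 to 3237 TPM in DMSO) were abundant. No marker was called between DEET and DMSO, although 5 of 5 body wall muscle markers had log2 fold changes below 0, with a median of -0.13. With the pair as a block, 3 of these 5 had an unadjusted p under 0.05 in edgeR, against 3.39% of all tested genes. They were unc-89 (0.015), unc-54 (0.021) and unc-15 (0.049). Of the 5 muscle markers, 2 were lower in DEET in 4 of 4 pairs. In whole worms, fewer cells of a type and less RNA per cell cannot be told apart.

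Transcripts of all these genes but ced-13 were found in each of the 8 libraries, and the most abundant was that of the caspase gene. Which cells they came from cannot be told in whole worms. Levels are in TPM, which is scaled per transcript length and so can be compared between genes. The median over the 8 libraries was highest for ced-3, at 100 TPM, followed by ced-9 at 57.6 TPM, cep-1 at 54.3 TPM, hus-1 at 46.3 TPM, ced-4 at 38.8 TPM, atl-1 at 37.1 TPM, mrt-2 at 26.7 TPM and atm-1 at 17.6 TPM. The targets of CEP-1 stood at the bottom, with egl-1 at 4.33 TPM and ced-13 at 0. For comparison, the median tested gene had a mean level of 10.9 TPM. The ranges of ced-3 and ced-9, ced-9 and cep-1, cep-1 and hus-1, ced-4 and atl-1, and atl-1 and mrt-2 overlapped over the 8 libraries. Within libraries, ced-3 exceeded ced-9 in 8 of 8 libraries, ced-9 exceeded cep-1 in 7, cep-1 exceeded hus-1 in 6 (all but those of pair 4), ced-4 exceeded atl-1 in 7 and atl-1 exceeded mrt-2 in 8. Neighbours whose ranges did not overlap were hus-1 and ced-4, mrt-2 and atm-1, atm-1 and egl-1, and egl-1 and ced-13.

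**Figure D1:**
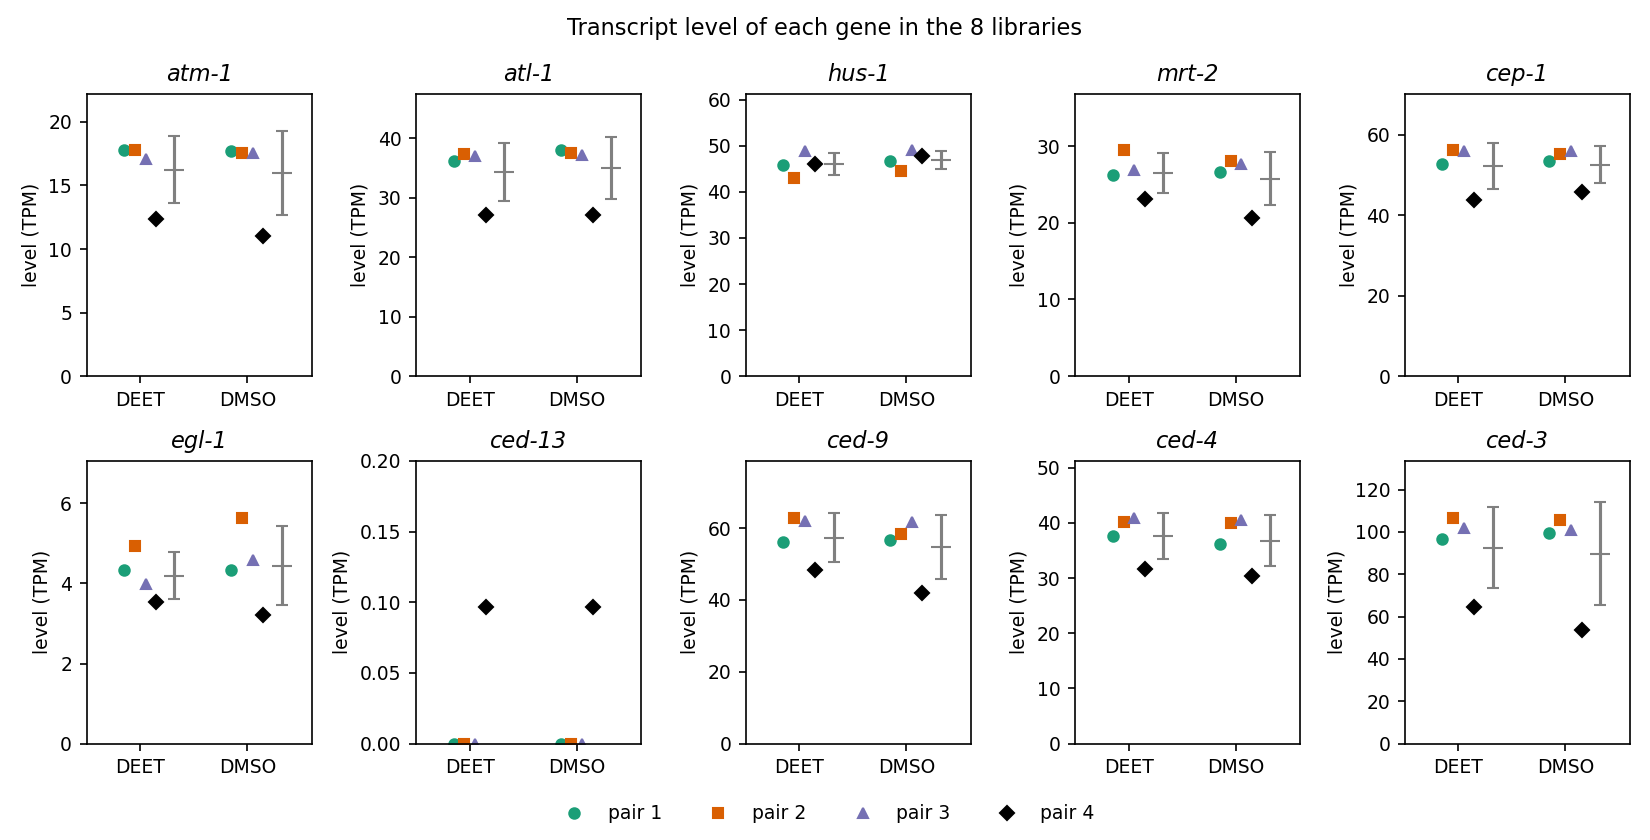
Level in TPM (vertical axes, each from 0) of the 10 genes in the 4 DEET and 4 DMSO libraries, with a marker for each pair number. Grey bars are the mean ± SD of 4 libraries and are not drawn for ced-13. DEET and DMSO lie over each other in every panel. The pair 4 libraries are the lowest of their group for 8 of the 9 genes with a bar, hus-1 being the exception.

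Of the targets of CEP-1, egl-1 was not called higher in DEET, and ced-13 had too few counts for any test to decide. The gene egl-1 (F23B12.9, chromosome V, 14431308 to 14432359, minus strand, in WBcel235, the build of all coordinates here) had 4.33, 4.93, 3.98 and 3.54 TPM in DEET pairs 1 to 4, against 4.33, 5.64, 4.59 and 3.22 TPM in DMSO pairs 1 to 4. The DEET values all lay inside the range of the DMSO values. The means were 4.19 ± 0.58 TPM in DEET and 4.45 ± 1.00 TPM in DMSO (SD, n = 4 each). The edgeR log2 fold change, DEET over DMSO throughout, was -0.09 with an adjusted p of 1.00. Without the DMSO library of pair 2, the highest of the 8, it was 0.05.

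Counts for egl-1 were low but not absent, with 200 over the 4 DEET libraries and 212 over the 4 DMSO libraries. A single library held 42 to 62 counts. The exact 95% Poisson interval was 30.3 to 56.8 counts for the library with the fewest and 47.5 to 79.5 counts for the one with the most, and the intervals overlap. These intervals cover counting error only. With the pair as a block, limma-voom gave egl-1 a 95% interval of 0.75-fold to 1.19-fold. A rise beyond 1.19-fold in whole worms therefore lies outside that interval, while a rise in a small share of germ cells was not measured by whole-worm RNA.

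Transcript of ced-13 (R09F10.9, chromosome X, 8299119 to 8299654, minus strand) was at the edge of detection in both groups. It had 0, 0, 0 and 1 counts in DEET pairs 1 to 4, and 0, 0, 0 and 1 counts in DMSO pairs 1 to 4. The single counts corresponded to 0.0967 TPM in the DEET library of pair 4 and 0.0969 TPM in the DMSO library of pair 4. With 1 count in each group, no test over these libraries can tell whether ced-13 changed. No fold change is given, since both groups lay under the limit of 3 counts, which corresponds to 0.060 to 0.068 CPM (counts scaled to the size of the library) at this depth. A change of ced-13 below that limit was not detectable.

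The p53-family gene itself did not pass the test either. The level of cep-1 (F52B5.5, chromosome I, 8324286 to 8328859, plus strand) was 52.8, 56.2, 56.1 and 43.9 TPM in DEET pairs 1 to 4, against 53.4, 55.2, 55.9 and 45.8 TPM in DMSO pairs 1 to 4. Within each pair the 2 libraries lay close together, and pair 4 was lowest in both groups. The edgeR log2 fold change was -0.01 with an adjusted p of 1.00, and 0.000625 with the scaling of DESeq2, and the limma-voom 95% interval with the block was 0.94-fold to 1.05-fold. The ratio of egl-1 to cep-1 transcript, in TPM over TPM, was 0.080 ± 0.007 in DEET and 0.084 ± 0.013 in DMSO (SD, n = 4 each), higher in DEET in 2 pairs and lower in 2.

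Among the genes that sense and relay damage, none passed the threshold. The differences between treatments were smaller than the SD between the libraries of a group, which includes the difference of pair 4. Within pairs, the mean log2 ratio was smaller in size than its SD over pairs for atm-1 (0.038, SD 0.096), atl-1 (-0.021, SD 0.024) and mrt-2 (0.046, SD 0.097). For hus-1 it was larger (-0.031, SD 0.023). The gene atm-1 (Y48G1BL.2, chromosome I, 183364 to 208384, plus strand), for the kinase best known for responding to double-strand breaks, had 17.8, 17.8, 17.1 and 12.4 TPM in DEET pairs 1 to 4, against 17.7, 17.6, 17.6 and 10.99 TPM in DMSO pairs 1 to 4. Pairs 1 to 3 of both groups lay between 17.1 and 17.8 TPM, and both pair 4 libraries lay below them. The log2 fold change was 0.03. The related kinase gene atl-1 (T06E4.3, chromosome V, 9634849 to 9645595, minus strand), whose product responds to stalled replication, averaged 34.4 ± 4.89 TPM in DEET and 35.0 ± 5.25 TPM in DMSO (SD, n = 4 each), a log2 fold change of -0.02.

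The clamp genes did not pass either. The gene hus-1 (H26D21.1, chromosome I, 3698102 to 3699300, plus strand) had 45.9, 43.1, 48.95 and 46.0 TPM in DEET pairs 1 to 4, against 46.6, 44.5, 49.1 and 47.8 TPM in DMSO pairs 1 to 4. The DEET library was the lower one in 4 of 4 pairs, but by little, with a log2 ratio between -0.05 and -0.01 in each pair. The gene mrt-2 (Y41C4A.14, chromosome III, 11746766 to 11750175, plus strand), the Rad1 relative of the clamp, averaged 26.4 ± 2.60 TPM in DEET and 25.7 ± 3.48 TPM in DMSO (SD, n = 4 each). Their log2 fold changes were -0.03 and 0.04. The edgeR adjusted p was 1.00 for each of these 4 genes.

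The genes that restrain and execute death also failed to pass. The gene ced-9 (T07C4.8, chromosome III, 10335172 to 10337522, plus strand), whose product blocks death, had 56.2, 62.95, 62.1 and 48.2 TPM in DEET pairs 1 to 4, against 56.8, 58.5, 61.8 and 41.9 TPM in DMSO pairs 1 to 4. Its log2 fold change of 0.07 was the highest of the 9 tested genes, and the groups overlapped. The gene ced-4 (C35D10.9, chromosome III, 4852325 to 4855171, plus strand), for the activator of the caspase, averaged 37.6 ± 4.23 TPM in DEET and 36.8 ± 4.62 TPM in DMSO (SD, n = 4 each), with a log2 fold change of 0.03.

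The caspase gene ced-3 (C48D1.2, chromosome IV, 13198261 to 13204137, minus strand) stood out for its pair 4 libraries. Its level was 96.8, 107, 102 and 64.6 TPM in DEET pairs 1 to 4, against 99.3, 106, 101 and 53.5 TPM in DMSO pairs 1 to 4. The 2 libraries of pair 4 stood apart from the other 6, and the treatments lay together within pairs 1 to 3. The log2 fold change was 0.04, and the adjusted p was 1.00 for ced-9, ced-4 and ced-3 alike.

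Ratios between transcripts of the death pathway overlapped between the groups. The ratio of egl-1 to ced-9, in TPM over TPM, was 0.073 ± 0.006 in DEET and 0.081 ± 0.010 in DMSO (SD, n = 4 each), and it was lower in DEET in 3 of 4 pairs. The ratio of ced-4 to ced-9 was 0.66 ± 0.013 in DEET and 0.68 ± 0.039 in DMSO, higher in DEET in 2 pairs and lower in 2. The ratio of ced-3 to ced-4 was 2.44 ± 0.27 in DEET and 2.41 ± 0.45 in DMSO, and in both groups pair 4 had the lowest value, at 2.04 in DEET and 1.76 in DMSO. No test was made on these ratios.

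Over all members, edgeR called 0 of 9 tested genes, where 0% of all tested genes were called without the block. With the block it again called 0 of 9, against 0.0839% of all tested genes, and the smallest unadjusted p was 0.115, for ced-9. None of the 9 had an unadjusted p under 0.05 in either fit, where 0.29% of all tested genes did without the block and 3.39% with it, and DESeq2 called 0 members with or without the block. Both shares are smaller than evenly spread p values would give, most of all without the block. The edgeR fit without the block is therefore conservative, and its adjusted p of 1.00 carries little information. Of the 9 genes, 5 had a log2 fold change above 0 and 4 below, and the median was 0.03, against 0.00 over all tested genes. Without the block, leaving out 1 library turned signs, for libraries of pair 4 and for libraries of the other pairs, and the cause was not tested. Without the DEET library of pair 2, for example, the log2 fold change was -0.02 for ced-3 and 0.01 for hus-1. Leaving out the DMSO library of pair 1 gave 0.03 for atl-1. Without the DMSO library of pair 4, the log2 fold change was -0.11 for atm-1, -0.13 for ced-3, -0.04 for ced-4, -0.04 for ced-9 and -0.05 for mrt-2, and without the DEET library of pair 4 it was 0.08 for atl-1 and 0.08 for cep-1. With the block and a whole pair left out, ced-3 ran from 0.003 to 0.11, ced-4 from 0.03 to 0.06, ced-9 from 0.04 to 0.12 and mrt-2 from 0.008 to 0.10, all above 0, and the lowest values of these 4 genes were those without pair 4.

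Within each pair number, DEET and DMSO lay close together in pairs 1 to 3. Each within-pair ratio was taken on log2 CPM, DEET minus DMSO, after adding a prior count of 2. In pairs 1 to 3, the ratios of the 8 tested genes other than egl-1 all lay between -0.05 and 0.10. For egl-1 they were -0.00, -0.20 and -0.22 in pairs 1 to 3 and 0.13 in pair 4. The median over the 9 genes was -0.00, 0.01, -0.01 and 0.13 in pairs 1 to 4, while the median over all tested genes was 0.00, -0.02, 0.01 and -0.01.

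Pair 4 gave the highest of the 4 ratios for 6 of the 9 genes. It was 0.27 for ced-3, 0.21 for ced-9, 0.17 for atm-1, 0.17 for mrt-2, 0.13 for egl-1 and 0.00 for atl-1. The other genes, ced-4, cep-1 and hus-1, had 0.06, -0.06 and -0.05 in pair 4. Without pair 4, the mean ratio of ced-3 was -0.00, against 0.07 ± 0.14 with all pairs (SD, n = 4), and that of atm-1 was -0.01, against 0.04 ± 0.10. In pair 4 the mean ratio of the germ cell markers was 0.19 and that of the oocyte markers 0.26, whereas over pairs 1 to 3 it lay between -0.03 and 0.00 for germ cell markers and between -0.04 and -0.01 for oocyte markers. Among the germ cell markers, him-3, syp-1 and syp-2 had ratios of 0.02, 0.02 and 0.01 in pair 4. Mean ratios in pair 4 were 0.08 for sperm markers and 0.02 for neuron markers. They were -0.12 for intestine, -0.11 for body wall muscle and -0.07 for gonadal sheath markers, and -0.08 for the 1 tested embryonic marker. The part of the markers in the ratios of pair 4 was not tested.

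Only ced-4 and hus-1, among the 9 genes, had the same sign in all 4 pairs. The gene ced-4 was higher in DEET in 4 of 4 pairs, with ratios of 0.07, 0.01, 0.01 and 0.06, where 4.58% of all tested genes had this pattern. The gene hus-1 was lower in 4 of 4 pairs, where 5.72% of all tested genes were. The mean ratio over the pairs had a median absolute size of 0.04 among the 9 genes and 0.05 among all tested genes. Its SD over pairs had a median of 0.10 among the 9 genes and 0.15 among all tested genes.

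**Figure D2:**
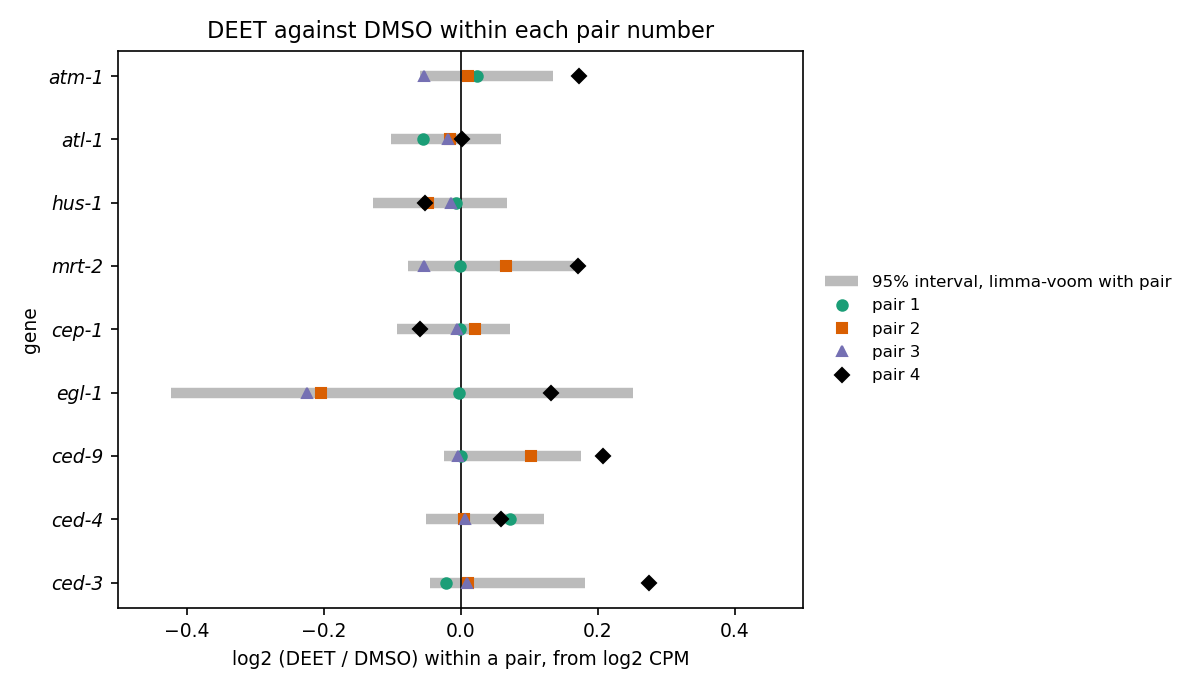
Log2 ratio of DEET to DMSO within each pair number (horizontal axis, from log2 CPM) for the 9 tested genes, with a marker for each pair and a grey bar for the 95% interval of limma-voom with the pair as a block. Pairs 1 to 3 cluster at 0 for all genes but egl-1. The pair 4 marker lies to the right of the grey bar for ced-3, ced-9, atm-1 and mrt-2, at 0.27, 0.21, 0.17 and 0.17.

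The limma-voom intervals state what sizes of change these libraries leave room for. The interval of ced-3 was 0.97-fold to 1.13-fold, that of ced-9 0.98-fold to 1.13-fold and that of ced-4 0.97-fold to 1.09-fold. For the checkpoint genes it was 0.96-fold to 1.10-fold for atm-1, 0.93-fold to 1.04-fold for atl-1, 0.91-fold to 1.05-fold for hus-1 and 0.95-fold to 1.12-fold for mrt-2. Each holds for 1 gene at a time, borrows its spread in part from other genes, and includes 1-fold.

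The largest differences among these genes were between pair numbers, not treatments. The comparison was added after the data were seen. In the edgeR fit with treatment and pair, 7 of 9 genes differed between pairs at an adjusted p under 0.05, and 64.9% of all tested genes did. The exceptions were egl-1 (adjusted p = 0.104) and hus-1 (adjusted p = 0.159). Against the mean of pairs 1 to 3, 8 of 9 genes were lower in pair 4 and 0 were higher, while over all tested genes 29.8% were lower and 36.4% were higher.

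The fall in pair 4 was graded. It was steepest for ced-3, with a log2 fold change of -0.78 (adjusted p = 3.1e-06 in edgeR), followed by atm-1 at -0.58 and atl-1 at -0.45. The falls of egl-1, ced-9, ced-4, mrt-2 and cep-1 were -0.44, -0.40, -0.33, -0.32 and -0.28, with the call of egl-1 close to the threshold (adjusted p = 0.047 in edgeR, and 0.052 without the filter on low counts, where it is lost). The median over all tested genes was 0.08. The clamp gene hus-1 stood at 0.03 (adjusted p = 0.640), so that the ratio of ced-3 to hus-1, in TPM over TPM, was 1.40 in the DEET library of pair 4 and 1.12 in the DMSO library of pair 4, against 2.05 to 2.48 in the other 6 libraries. The ratio of mrt-2 to hus-1, both clamp genes, was also lowest in pair 4 within each group, at 0.50 in DEET and 0.43 in DMSO.

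Both treatments showed the pair 4 difference separately. For ced-3, pair 4 minus the mean of pairs 1 to 3 was -0.64 log2 CPM in DEET and -0.92 log2 CPM in DMSO, where the SD of pairs 1 to 3 was 0.07 in DEET and 0.05 in DMSO. For atm-1 it was -0.49 in DEET and -0.67 in DMSO, with SDs of 0.04 and 0.005. The size of the difference exceeded the SD of pairs 1 to 3 in both groups for the 8 genes that were lower in pair 4.

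Marker genes moved with it. In pair 4, 7 of 7 oocyte markers were lower, with a median log2 fold change of -0.79 and a summed level of 1918 TPM in DEET and 1606 TPM in DMSO, the lowest of each group. Of 8 germ cell markers 5 were lower and 0 higher, with a median of -0.59. The 3 that did not pass were him-3, syp-1 and syp-2. Of 8 sperm markers 7 were higher, with a median of 1.04, as were 3 of 4 intestine markers. Of 5 neuron markers 3 were higher and 1 lower, and of 5 body wall muscle markers 3 were higher and 1 lower. Over all tested genes 36.4% were higher and 29.8% lower, so these small counts do not set the neuron and muscle lists apart. The 1 tested embryonic marker, hlh-1, was higher, with a log2 fold change of 0.37 (adjusted p = 0.048 in edgeR). Neither gonadal sheath marker passed, and ribosomal RNA was highest in pair 4. Their part in the levels of the checkpoint and apoptosis genes was not tested.

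**Figure D3:**
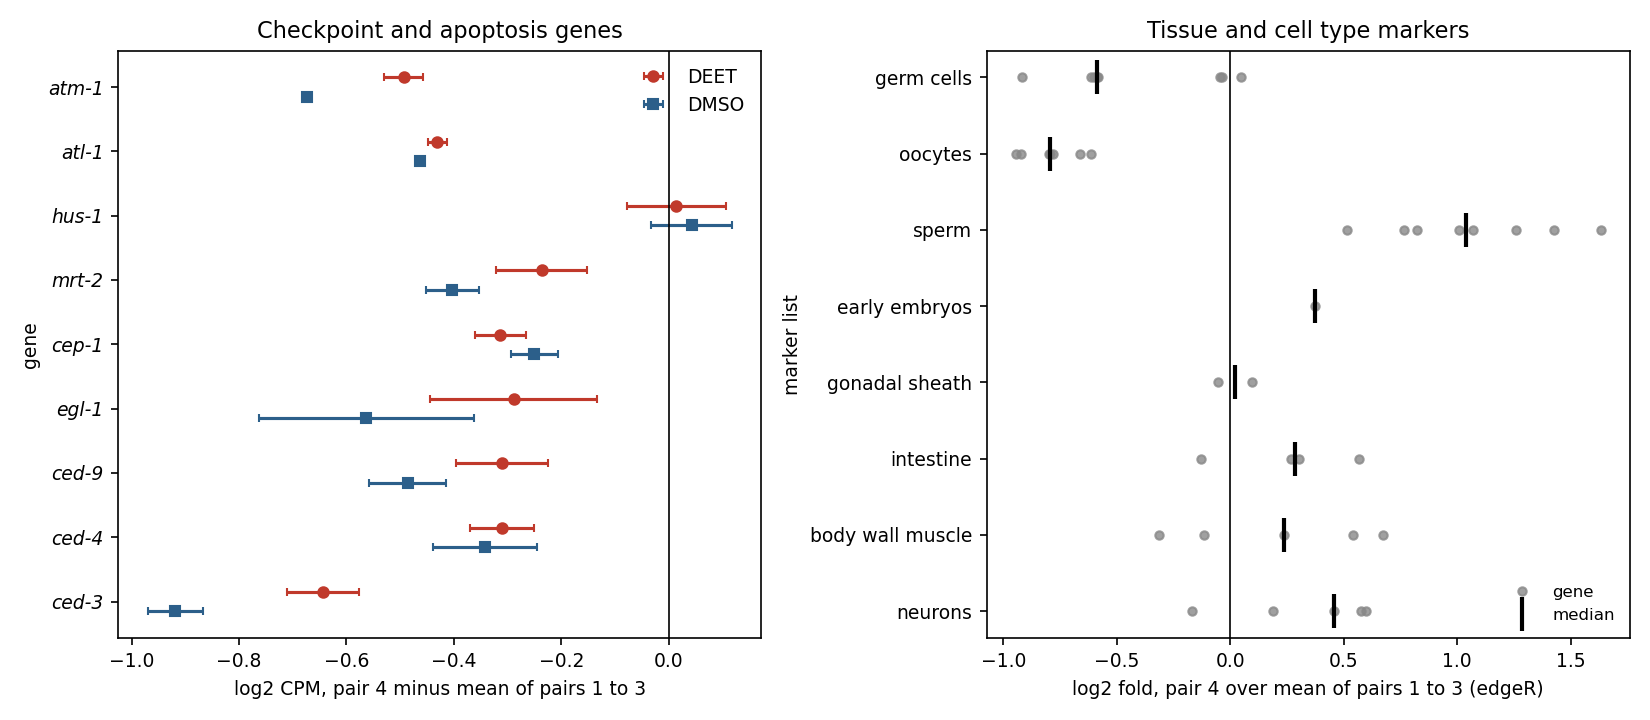
Left, log2 CPM in pair 4 minus the mean of pairs 1 to 3 for the 9 tested genes in DEET and in DMSO, with bars for the SD of pairs 1 to 3. Right, log2 fold change of pair 4 over pairs 1 to 3 from edgeR for the tested markers of 8 tissues or cell types, with the list median as a black tick. All genes on the left but hus-1 lie below 0 in both groups, ced-3 farthest, as the oocyte markers do on the right.

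No gene of the wider pathway was called between treatments. A set of 65 genes in 6 lists, of which 62 were tested, covered checkpoint signalling, core cell death, regulators of cep-1 and egl-1, MAP kinase and RNA regulators of germ cell death, corpse engulfment and apoptotic DNA degradation. edgeR called 0 of the 62 without the block and 0 with it. Without the block 0 had an unadjusted p under 0.05, against 0.29% of all tested genes, and with it 2 did, against 3.39% of all tested genes. Of the 62, 48 had a log2 fold change above 0 and 14 below, the median was 0.03, and the values ran from -0.13 to 0.11. Over all tested genes 51.0% lay above 0. For 4 of the lists (checkpoint signalling, the regulators, the MAP kinase and RNA regulators, and engulfment) the mean ratio within pairs lay between -0.05 and 0.03 in pairs 1 to 3 and was 0.16, 0.12, 0.17 and 0.11 in pair 4, where that of germ cell markers was 0.19 and that of oocyte markers 0.26. The part of these markers was not tested. The mean ratios of the remaining lists did not share this pattern. Core cell death had mean ratios of -0.03, 0.17, 0.05 and -0.11 in pairs 1 to 4, and apoptotic DNA degradation had 0.01, -0.05, 0.03 and 0.04. The pair 4 mean of core cell death included csp-1 (63 to 153 counts per library) at -0.60 and csp-2 (36 to 126 counts) at -0.81. The other tested genes of that list had 0.27 for ced-3, 0.21 for ced-9, 0.13 for egl-1, 0.06 for ced-4 and -0.01 for ced-8 in pair 4. Of the 62, 54 were not among the 10 genes described above, and cep-1 itself is in none of the lists.

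Checkpoint signalling held 11 genes, 9 of them above 0 and 2 below, with a median log2 fold change of 0.03. The kinase gene chk-1, which acts below ATL-1, averaged 50.5 ± 6.21 TPM in DEET and 49.5 ± 11.2 TPM in DMSO (SD, n = 4 each). The gene chk-2, for a kinase that in worms also drives meiotic chromosome pairing, averaged 12.03 ± 2.499 TPM in DEET and 11.3 ± 2.66 TPM in DMSO, and was higher in DEET in 4 of 4 pairs with a log2 fold change of 0.10. The clamp gene hpr-9 and the clamp loader gene hpr-17 had log2 fold changes of 0.02 and 0.02, and clk-2, a relative of the yeast checkpoint gene TEL2, had 0.01. Claspin gene clsp-1, which mediates activation of CHK-1, was named after its values were seen, as the list's lowest unadjusted p with the block, 0.024. Its log2 fold change was 0.11.

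In the core cell death list, 7 of 9 genes were tested, 4 of them above 0 and 3 below. The caspase-like genes csp-1 and csp-2 stood at 2.16 ± 0.64 and 0.75 ± 0.14 TPM in DEET, against 2.25 ± 0.67 and 0.75 ± 0.35 TPM in DMSO (SD, n = 4 each). Neither matched the abundance of ced-3. The third, csp-3, had 3 to 14 counts per library and did not pass the filter.

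Regulators of cep-1 and egl-1 numbered 12, with 11 above 0, 1 below and a median of 0.03. Translation of cep-1 mRNA is repressed by the RNA-binding protein GLD-1, and gld-1 averaged 491 ± 100 TPM in DEET and 480 ± 127 TPM in DMSO (SD, n = 4 each). The gene ape-1, for an inhibitor of CEP-1, averaged 86.0 ± 12.5 TPM in DEET and 84.4 ± 15.4 TPM in DMSO. The retinoblastoma relative lin-35, which in the germline favours death, had a log2 fold change of 0.04. Of the 10 MAP kinase and RNA regulators all lay above 0, with a highest value of 0.05 and a median of 0.03. Their mean ratios within pairs were -0.01, 0.02, -0.00 and 0.17 in pairs 1 to 4, so the size comes from pair 4. Mean ratios of germ cell and oocyte markers were also above 0 in pair 4, and the part of these markers in the list was not tested. The list included gla-3, whose product restrains germ cell death, and mpk-1, the MAP kinase gene, with log2 fold changes of 0.03 and 0.02.

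Genes that clear dead cells did not pass either. Among 11 tested engulfment genes, 7 lay above 0 and 4 below, with a median of 0.02. The receptor gene ced-1 averaged 33.2 ± 3.40 TPM in DEET and 33.4 ± 5.57 TPM in DMSO, and the GTPase gene ced-10 averaged 51.8 ± 2.33 TPM in DEET and 52.1 ± 7.17 TPM in DMSO (SD, n = 4 each). The other gene with an unadjusted p under 0.05 with the block, 0.047, was nrf-5, a secreted lipid-binding protein gene also named after its values were seen, with a log2 fold change of -0.13. Of 11 genes for apoptotic DNA degradation 7 lay above 0 and 4 below. The nuclease gene nuc-1 averaged 53.0 ± 15.2 TPM in DEET and 55.6 ± 18.7 TPM in DMSO, and in pair 4 it was higher, with a log2 fold change of 0.80, the opposite of ced-3.

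**Figure D4:**
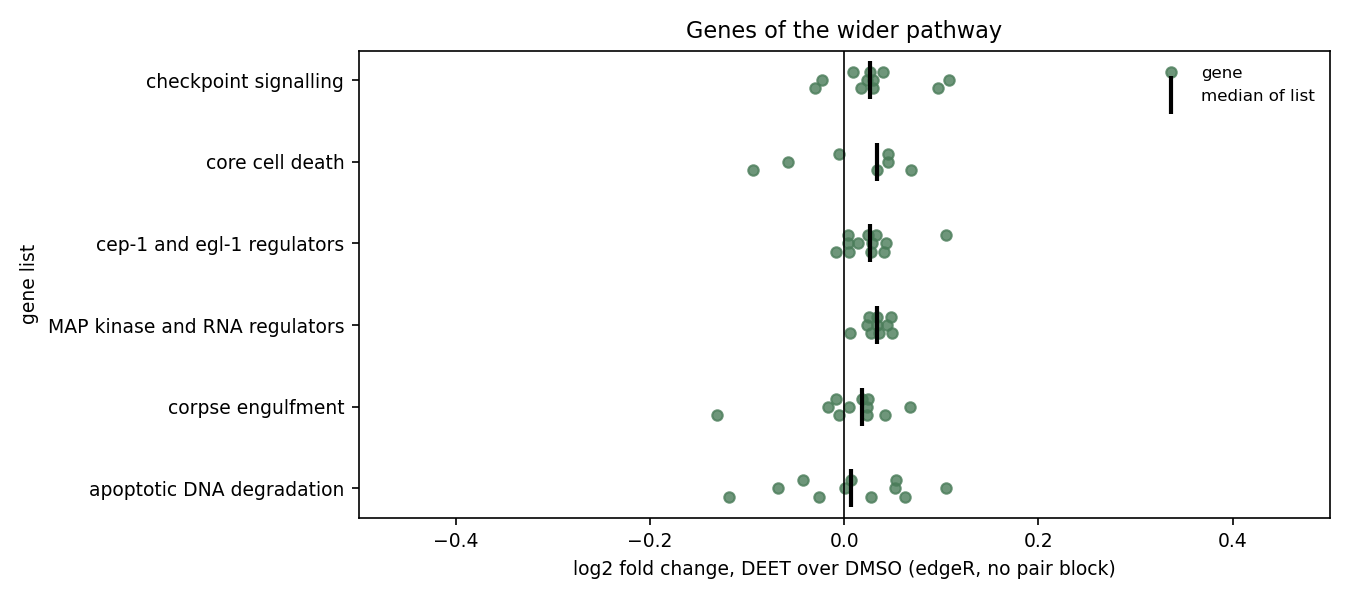
Log2 fold change of DEET over DMSO from edgeR without the pair block (horizontal axis) for the tested genes of the 6 pathway lists, with the median of each list as a black tick. All 62 genes lie between -0.13 and 0.11. The list medians lie between 0.01 and 0.03.

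Genes with the profile most like that of cep-1 were taken as those with the smallest root mean square difference between log2 CPM profiles, each centred on its own mean, over the 8 libraries. They were C33F10.4, mau-2, which encodes a cohesin loader, and prcc-1, at differences of 0.015, 0.016 and 0.017 log2 units, where the SD of cep-1 itself was 0.14. For egl-1, whose SD was 0.25, they were abtm-1, which encodes an ABC transporter, ref-1, a transcription factor gene, and C09G1.1, at 0.046, 0.067 and 0.068 log2 units. In pair 4 these 6 genes had log2 fold changes of -0.45 to -0.28, so the likeness includes the difference of pair 4. In all, 53 genes lay within 2 times the smallest difference for cep-1, and 29 did for egl-1. The genes named are therefore not set apart from many others. The level of C09G1.1 was low, with a mean of 0.60 TPM. At 42 to 62 counts per library, part of the egl-1 profile is counting error, and so part of its likeness to other genes may be.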

How the data were processed

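Polyadenylated RNA of whole worms was sequenced in 4 DEET and 4 DMSO samples; per the labels' protocols libraries were made with a Kapa mRNA HyperPrep kit. The submitters' processing notes name Salmon, DESeq2 and build WBcel235. Versions, settings and strand use: not given in the sources used here. Per the file headers, one deposited table holds whole-number counts per gene, not normalized, and the other, deposited by the authors, holds TPM, which sum to the same total in each library. Read sharing among similar transcripts by a model can affect single counts; no exon of a member overlaps an exon of another annotated gene. Read pairs carry no molecular identifiers.

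Of 46244 identifiers, 46182 were matched by sequence name to 1 gene of the Ensembl WBcel235 annotation, which also gave 1-based coordinates. The main test of counts was edgeR's quasi-likelihood test (edgeR 4.0.16, R 4.3.3), with TMM scaling, the default filter, treatment alone and Benjamini-Hochberg adjustment over all tested genes (threshold 0.05, two-sided). Alternatives were the pair as a block, DESeq2 1.42.0, limma 3.58.1 (voom, or log2 TPM with a pseudocount of 1 or 0.1), other scaling, no filter, and libraries or pairs left out; fits without ribosomal RNA genes and the tests between pairs were added after the data were seen. The edgeR and DESeq2 fits with and without the block, limma-voom with the block and limma on log2(TPM + 1) were tested on simulated data. The other alternatives and the tests between pairs were not. For ced-13 the planned exact permutation test is not used, since its counts leave it without information.

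The labels mark the pair number as a batch. Deviations from group means correlated within pairs at 0.43, 0.71, 0.56 and 0.90 for pairs 1 to 4, and 8 of 8 libraries correlated best with their own number. No 2 libraries of a group agreed within sampling noise (chi-square per gene at least 13.4). The labels call the samples independent repeats.

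The members and gene lists were chosen with earlier results of these data known. The genes named were all 10 members, list genes chosen for their role, any list gene past the threshold, and the 3 profiles nearest to cep-1 and to egl-1. One of 48 markers, opt-2, was not matched. Sequences of the members were not used here.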

Additional observations from a re-analysis of the deposited data

Results flagged for a closer look

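In 7 of 20 groups of 4 libraries (10 genes in 2 treatments), 1 library lay far from the other 3 in TPM. Chance flags about 1 group in 20 where groups are independent and values normally distributed. These groups share the same 8 libraries, so the 7 flags cannot be set against that rate. In all 7 flagged groups the far library was that of pair 4. For atm-1 they were the DEET library at 12.4 TPM, with the others at 17.1 to 17.8 TPM, and the DMSO library at 10.99 TPM, with the others at 17.6 to 17.7 TPM. For atl-1 they were the DEET library at 27.1 TPM, with the others at 36.2 to 37.3 TPM, and the DMSO library at 27.1 TPM, with the others at 37.2 to 38.03 TPM. For ced-3 the DMSO library stood at 53.5 TPM, with the others at 99.3 to 106 TPM. For ced-13 the DEET library at 0.0967 TPM and the DMSO library at 0.0969 TPM each rest on 1 count, with the others at 0. Such a pattern is always flagged, so the flags of ced-13 carry no information.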

How the results depend on the processing

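No member and no gene of the pathway lists was called in any of the 22 alternatives, in which the smallest adjusted p of a member was 0.946. The count over all genes, 0 in edgeR without the block, was 13 with the replicate block (also without ribosomal RNA genes), 10 in DESeq2, 20 in DESeq2 with the block, 14 in limma-voom with the block, and 3 each with RLE scaling, without a filter and on log2(TPM + 0.1); leaving out a library gave 0 to 3, and leaving out a pair under the block gave 11 to 16 (12 without pair 3). The sign of the members' log2 fold changes was not stable: 29 of 198 alternative values had the opposite sign, the cause of which was not tested. For cep-1 these included 0.000643 in DESeq2, 0.000625 with RLE scaling, 0.0039 without a filter and 9.0e-05 without ribosomal RNA genes. Under the replicate block, leaving out a pair turned atm-1 to -0.00318 (pair 4), atl-1 to 0.00401 (pair 1) and cep-1 to 0.000389, 0.00543 and 0.00832 (pairs 1, 3 and 4). With a library or pair left out, the values ran from -0.111 to 0.145 for atm-1, -0.122 to 0.083 for atl-1, -0.064 to 0.075 for cep-1, -0.218 to 0.054 for egl-1, -0.132 to 0.19 for ced-3, -0.041 to 0.116 for ced-4, -0.035 to 0.151 for ced-9, -0.045 to 0.0099 for hus-1 and -0.047 to 0.108 for mrt-2; without the DMSO library of pair 4, atm-1, ced-3, ced-4, ced-9 and mrt-2 turned negative. For ced-13 no test is informative at 1 count in each group. A prior count of 0.5 moved no mean ratio within pairs by more than its SD. Under RLE scaling, without a filter and without ribosomal RNA genes, 7 members again differed between pairs, and 8, 7 and 8 were lower in pair 4. Depth limits egl-1, at 42 to 62 counts per library, and ced-13, at 0 or 1.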
